A study of Mus musculus with 12 samples.

Results

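The 9 genes described here encode proteins of the platelet and megakaryocyte surface and of the granules and signalling machinery behind it. They are the integrin chains Itga2b and Itgb3, the glycoproteins Gp1bb, Gp9 and Gp6, the receptor-like Treml1, the chemokine Pf4, the adhesive protein Vwf and the signalling protein Plek. They were taken by symbol from the gene tables, which list 24411 genes, and all 9 were found. The label of a surface set is not exact, since Pf4 and Vwf are secreted from granules and Plek lies inside the cell. Marrow was gated as lineage-negative and cKit-positive, which takes stem cells and early progenitors and leaves out mature blood cells. The cells were collected from C57BL/6 transplants, in which CD45.1 recipients had been irradiated and given CD45.2 donor marrow along with support marrow from wild-type CD45.1 mice, and a later sort for donor cells is not stated in the labels. Bulk RNA was measured in 12 libraries, 3 for each of 4 donor genotypes. Donor cells of every group, controls included, carried Mx1-Cre, a recombinase driven by an interferon-inducible promoter that is active in blood cells and also in other tissues. The control donors carried nothing more, the inv(3) donors carried the inv(3) allele, the Sf3b1 K700E donors carried a heterozygous Sf3b1 K700E mutation, and the double donors carried both alleles. All recipients had received 3 doses of pIpC at 20 mg/kg, which switches Mx1-Cre on, and were sampled 6 months later. The labels state neither the animals' ages nor how the inv(3) allele was built.

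In human leukemia the inv(3) rearrangement brings an enhancer of GATA2 next to the gene for EVI1, a transcription factor of stem cells, and SF3B1 is a core splicing factor. Megakaryocytes are large marrow cells that shed platelets, and they arise from stem cells through progenitors shared with the erythroid line. During that path GATA1 and its partner FOG1, together with ETS factors such as FLI1, switch on the genes for platelet adhesion receptors. Integrin αIIbβ3, made from Itga2b and Itgb3, binds fibrinogen and lets platelets aggregate, and Itga2b (CD41) also marks early megakaryocyte progenitors and some stem cells. The GPIb-IX-V complex, built from GPIbα, GPIbβ (Gp1bb), GPIX (Gp9) and GPV, binds von Willebrand factor (Vwf) under flow, and GPVI (Gp6) binds collagen.

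The 250 bases before the start of Itga2b, Treml1, Gp1bb and Gp9 are printed because Itga2b had the most RNA per length of the surface receptors in control, Treml1 fell furthest, and Gp1bb and Gp9, whose products join in a single complex, took different courses. They are from RefSeq (GRCm38.p6) on the gene's own strand, at chr11:102469884-102470133 (minus strand) for Itga2b, chr17:48359666-48359915 (plus strand) for Treml1, chr16:18622404-18622653 (minus strand) for Gp1bb and chr6:87777820-87778069 (plus strand) for Gp9. The start that the table uses for Gp9, and for Gp6, lies inside the span RefSeq gives the gene, so a start further upstream is annotated too. Capitals mark the ETS-type motif CAGGAA, which reads TTCCTG on the opposite strand.
Itga2b: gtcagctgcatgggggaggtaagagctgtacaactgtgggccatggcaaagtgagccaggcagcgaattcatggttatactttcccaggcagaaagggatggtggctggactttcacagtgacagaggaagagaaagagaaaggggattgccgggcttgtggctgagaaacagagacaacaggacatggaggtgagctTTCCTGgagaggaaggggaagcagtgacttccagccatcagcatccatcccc
Treml1: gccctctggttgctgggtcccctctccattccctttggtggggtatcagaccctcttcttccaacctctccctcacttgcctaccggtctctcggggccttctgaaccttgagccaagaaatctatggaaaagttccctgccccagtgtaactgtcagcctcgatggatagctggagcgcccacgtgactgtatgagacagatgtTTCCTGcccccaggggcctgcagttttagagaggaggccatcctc
Gp1bb: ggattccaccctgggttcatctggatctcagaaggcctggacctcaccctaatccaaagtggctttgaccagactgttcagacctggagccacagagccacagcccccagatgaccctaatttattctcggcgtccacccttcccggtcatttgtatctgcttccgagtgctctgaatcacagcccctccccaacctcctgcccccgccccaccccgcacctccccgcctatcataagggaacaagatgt
Gp9: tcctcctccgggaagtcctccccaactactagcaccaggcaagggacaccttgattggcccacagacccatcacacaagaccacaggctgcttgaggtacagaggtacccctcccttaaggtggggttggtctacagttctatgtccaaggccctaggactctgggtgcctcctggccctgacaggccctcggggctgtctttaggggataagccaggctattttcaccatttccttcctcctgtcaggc
Promoter sequences were found for 7 of the 9 genes, and the pair without one is Itgb3 and Vwf. CAGGAA, searched on both strands in windows from 250 bases before to 50 bases after the start, was found in Itga2b, with its first base at -52, and in Treml1, at -45. The GATA motifs AGATAA and TGATAA were searched the same way, and AGATAA was found in Pf4, at 37 after the start, and in Gp6, at -144. No match was found in Gp1bb, Gp9 or Plek. Among 32851 promoter windows of that length, 30.6% hold CAGGAA and 18.6% hold a GATA motif of either form. No member's window held more than 1 match, so none overlapped. A match is a run of letters and was not tested for binding.

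Library totals ran from 73074797 to 86555638 expected counts, the authors' estimates of fragments per gene. Levels within a gene are given as CPM, counts divided by the scaled library size, and levels of different genes are compared as the deposited TPM (a transcript abundance scaled to a fixed total), which corrects for length. Of the 9 genes, 8 passed the filter on low counts, and Gp6 did not. Calls are those with an adjusted p under 0.05 by edgeR's quasi-likelihood test over all 13755 tested genes. The labels do not say that replicates are separate mice, so the spread behind each p-value may be technical. The inv(3) libraries held 4 to 8 counts from Y-linked genes each, against 19200 to 25380 in the other 9, and 1794 to 2095 CPM of Xist against 23.2 to 209.7. Donor or recipient sex and the inv(3) genotype therefore cannot be told apart in comparisons of the inv(3) group with control or the double group. The double, control and Sf3b1 K700E libraries all held Y-linked RNA, but their Xist differed. It was 77.1 to 209.7 CPM in Sf3b1 K700E, 24.0 to 39.9 CPM in control and 23.2 to 40.5 CPM in the double group. In Sf3b1 K700E against control Xist was called higher, at 2.28 (edgeR adjusted p = 0.007). In the double group against Sf3b1 K700E it was called lower, at -2.39 (edgeR adjusted p = 0.00026).

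The integrin genes were lowered wherever the inv(3) allele was present. Itga2b measured 68.8, 85.1 and 92.8 CPM in the control libraries, 20.2, 14.1 and 15.0 CPM in inv(3), 105.2, 102.6 and 81.2 CPM in Sf3b1 K700E and 21.1, 12.8 and 17.4 CPM in the double group. Every library with the inv(3) allele lay below every library without it, while control and Sf3b1 K700E ranges overlapped, as did inv(3) and double ranges. Itga2b fell by 2.32 ± 0.20 (log2 fold change ± SE) in inv(3) against control, a 5.01-fold lower level (edgeR adjusted p = 9e-06). In the double group it fell by 2.27 ± 0.20 against control (edgeR adjusted p = 6.8e-06) and by 2.49 ± 0.20 against Sf3b1 K700E (edgeR adjusted p = 3.2e-06). Because RNA was measured in bulk, fewer cells of a type and less RNA per cell cannot be told apart, here or below.

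Itgb3, the β3 chain that pairs with αIIb and also with the αV integrin, was nearly constant in control, at 30.2, 30.5 and 30.8 CPM. It measured 11.2, 4.0 and 8.07 CPM in inv(3), 31.6, 35.3 and 31.8 CPM in Sf3b1 K700E and 7.05, 4.56 and 8.65 CPM in the double group. Again the 6 libraries with inv(3) lay apart from the 6 without, and the Sf3b1 K700E range lay just above the control range. Itgb3 fell by 1.97 ± 0.30 in inv(3) against control (edgeR adjusted p = 0.00044) and by 2.28 ± 0.31 in the double group against Sf3b1 K700E (edgeR adjusted p = 0.00011). The ratio of Itga2b to Itgb3, from TPM within a library, averaged 4.62 ± 0.65 (SD, n = 3) for control, 4.11 ± 1.66 for inv(3), 5.03 ± 0.67 for Sf3b1 K700E and 4.47 ± 0.88 for double libraries. The ranges of this ratio overlapped in every pair of groups. Itgav, which encodes the αV partner, was not called in any comparison, with a log2 fold change of 0.15 ± 0.07 in inv(3) against control (edgeR adjusted p = 0.13).

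Gp1bb and Gp9, whose products sit in the same complex, did not move together. Gp1bb, the GPIbβ chain, was low throughout, at 1.52, 1.95 and 2.11 CPM in control, 0.64, 0.26 and 0.37 CPM in inv(3), 2.20, 2.58 and 1.86 CPM in Sf3b1 K700E and 0.56, 0.38 and 0.65 CPM in the double group. The inv(3) and double libraries, with 19 to 49 counts each, lay below all others. Gp1bb fell by 2.12 ± 0.30 in inv(3) against control (edgeR adjusted p = 0.00022), by 1.81 ± 0.30 in the double group against control (edgeR adjusted p = 0.00048) and by 2.06 ± 0.30 in the double group against Sf3b1 K700E (edgeR adjusted p = 0.00014). On the same strand Gp1bb overlaps the end of the septin gene Sept5, so their reads may be shared. Sept5 had a log2 fold change of -0.10 ± 0.18 in inv(3) against control (edgeR adjusted p = 0.59) and fell by 1.25 ± 0.18 in the double group against control (edgeR adjusted p = 0.00026).

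Gp9, the GPIX chain, measured 2.57, 3.44 and 3.63 CPM in control, 3.47, 3.84 and 3.35 CPM in inv(3), 3.70, 3.16 and 2.62 CPM in Sf3b1 K700E and 4.54, 2.83 and 3.33 CPM in the double group. All 4 ranges overlapped, with 196 to 381 counts per library. Its log2 fold change was 0.14 ± 0.20 in inv(3) against control (edgeR adjusted p = 0.59), 0.15 ± 0.20 in the double group against control (edgeR adjusted p = 0.58) and 0.17 ± 0.20 in the double group against Sf3b1 K700E (edgeR adjusted p = 0.48). It was the only tested gene of the 9 that passed in none of these comparisons. Per library, the TPM ratio of Gp9 to Gp1bb was 4.47, 4.66 and 4.56 in control and 4.48, 3.33 and 3.77 in Sf3b1 K700E. It was 14.9, 39.2 and 24.6 in inv(3) and 21.1, 19.9 and 13.7 in the double group, above every library without inv(3). With 3 libraries against 3 the exact two-sided permutation test gives p = 0.1, the smallest it allows, and 0.25 after adjustment over the 20 ratio comparisons made. The ratios were chosen after the values had been seen.

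Gp9 lies on chromosome 6 at 87776131 to 87779786 (GRCm38), 305 kb from Rpn1 and 414 kb from Gata2, the genes near the GATA2 enhancer that the human rearrangement moves. Within 500 kb on either side RefSeq places 38 genes, of which 13 were tested in inv(3) against control, 8 of them lower and 1 higher, with a median log2 fold change of -0.18, beside 20.3% lower and 18.4% higher among all tested genes. Gata2 itself fell by 0.54 ± 0.17 there (edgeR adjusted p = 0.029). How the inv(3) allele was built is not stated, so whether this mouse region is altered in it is unknown. A link between the position of Gp9 and its values was not tested.

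The other subunits of the complex were called with Gp1bb in the same direction. Gp1ba, the von Willebrand factor-binding chain, fell by 2.0 ± 0.29 in inv(3) against control (edgeR adjusted p = 0.00025) and by 1.28 ± 0.28 in the double group against control (edgeR adjusted p = 0.0033). Gp5, the accessory GPV chain, fell by 1.41 ± 0.24 (edgeR adjusted p = 0.00088) and by 0.76 ± 0.24 (edgeR adjusted p = 0.023) in those comparisons. The Gp5 call in the double group was lost without control library 2 (adjusted p = 0.068), control library 3 (0.077) or double library 3 (0.06), and with the compared groups alone (0.055), all by edgeR. Of the 4 chains, 3 were therefore lower in inv(3) and Gp9 was not called. Neither partner passed in Sf3b1 K700E against control, with 0.49 ± 0.27 for Gp1ba (edgeR adjusted p = 0.27) and 0.56 ± 0.23 for Gp5 (edgeR adjusted p = 0.15). Gp5 passed there with the compared groups alone (edgeR adjusted p = 0.04) and without double library 2 (0.048). In double against inv(3) Gp1ba had 0.72 ± 0.29 (edgeR adjusted p = 0.1) and Gp5 had 0.64 ± 0.24 (edgeR adjusted p = 0.08). Both passed there without double library 2, at 1.02 (edgeR adjusted p = 0.0049) and 0.90 (edgeR adjusted p = 0.0057), and DESeq2 called Gp5, at 0.64 (adjusted p = 0.038).

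Gp6, the collagen receptor, was close to absent. It had 1, 2 and 0 counts in the control libraries, 2, 0 and 0 for inv(3), 4, 1 and 1 for Sf3b1 K700E and 0 in each double library. The 0 counts of the double group allow up to 3 counts over its libraries, or 0.0127 CPM, by counting error alone, and the control level was 0.0128 CPM. No difference was detectable at this depth. Fcer1g, the signalling chain that pairs with GPVI but also with Fc receptors of myeloid cells, was abundant, and it fell by 0.64 ± 0.10 in inv(3) against control (edgeR adjusted p = 0.00052) and by 1.20 ± 0.10 in the double group against control (edgeR adjusted p = 5.5e-06). It also fell in double against inv(3), by 0.55 ± 0.10 (edgeR adjusted p = 0.0046). None of the partners Gp1ba, Gp5, Fcer1g and Itgav passed in the interaction by edgeR over all libraries. Fcer1g had -0.58 ± 0.15 there (edgeR adjusted p = 0.09), which passed with DESeq2 (adjusted p = 0.006) and without inv(3) library 2 (edgeR adjusted p = 0.047).

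Treml1 encodes TLT-1, a receptor stored in platelet α-granules and carried to the surface on activation. It measured 2.48, 2.80 and 2.87 CPM in control, 0.49, 0.17 and 0.31 CPM in inv(3), 4.03, 5.33 and 3.11 CPM in Sf3b1 K700E and 0.32, 0.21 and 0.21 CPM in the double group. The groups without inv(3) lay far above the others, and each Sf3b1 K700E library was above each control library. Treml1 had the largest fold change of the 8 tested genes in all 3 comparisons that add the inv(3) allele. It fell by 3.08 ± 0.32 in inv(3) against control (edgeR adjusted p = 2.4e-05), by 3.44 ± 0.33 in the double group against control (edgeR adjusted p = 9e-06) and by 4.06 ± 0.33, 16.6-fold, in the double group against Sf3b1 K700E (edgeR adjusted p = 2.5e-06). The libraries with inv(3) held 12 to 37 counts of it.

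Pf4 and Vwf are α-granule cargo, Pf4 a heparin-binding chemokine and Vwf the multimeric ligand of GPIb. Pf4 measured 18.3, 22.9 and 21.8 CPM in control, 7.14, 2.38 and 6.15 CPM in inv(3), 24.7, 35.9 and 20.2 CPM in Sf3b1 K700E and 12.1, 4.65 and 9.44 CPM in the double group. The double libraries lay below control but reached above the inv(3) range. Pf4 fell by 2.0 ± 0.41 in inv(3) against control (edgeR adjusted p = 0.0028), by 1.62 ± 0.40 in the double group against Sf3b1 K700E (edgeR adjusted p = 0.006) and by 1.26 ± 0.40 in the double group against control (edgeR adjusted p = 0.026). That last call was lost without the low-count filter (edgeR adjusted p = 0.055) and without control library 2 (0.068), control library 3 (0.063) or double library 2, where the log2 fold change was -0.96 (0.069).

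Vwf measured 23.5, 30.1 and 30.9 CPM in control, 10.2, 4.46 and 8.26 CPM in inv(3), 35.9, 51.8 and 29.9 CPM in Sf3b1 K700E and 17.1, 9.27 and 14.3 CPM in the double group. As for Pf4, the double range lay below control and overlapped the upper end of inv(3). Vwf fell by 1.88 ± 0.31 in inv(3) against control (edgeR adjusted p = 0.00082) and by 1.53 ± 0.31 in the double group against Sf3b1 K700E (edgeR adjusted p = 0.0018). In the double group against control it fell by 1.05 ± 0.30 (edgeR adjusted p = 0.017), a call lost without control library 3 (0.053) or double library 2, where the log2 fold change was -0.85 (0.055). Vwf is also made by endothelial cells, whose 8 marker genes summed to 133.7 to 151.6 CPM in control, 120 to 146.1 CPM in inv(3), 150.1 to 167.7 CPM in Sf3b1 K700E and 165.7 to 205.7 CPM in the double group. Pecam1, which blood cells also express, made up most of that sum, with a mean of 81.2 CPM in control and 104.3 CPM in inv(3), and it was called higher there. Of the 7 tested endothelial genes 4 were lower and 1 higher in inv(3) against control. The 4 had log2 fold changes of -3.95 for Emcn, -3.20 for Kdr, -1.21 for Tie1 and -0.92 for Plvap. In the double group against control 4 were lower and 3 higher, Tek at 0.99, Egfl7 at 0.68 and Pecam1 at 0.65. Among all tested genes 20.3% were lower and 18.4% higher in the first comparison, and 20.4% and 20.8% in the second. The endothelial cadherin Cdh5 had 9 to 16 counts per group, and none of those 8 genes was at 0 in any group. Their part in the Vwf values was not tested.

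Set against Itga2b in the same library, both granule genes lay higher in the double group than in control. The TPM ratio of Vwf to Itga2b was 0.129, 0.133 and 0.126 for control, 0.189, 0.120 and 0.207 for inv(3), 0.129, 0.191 and 0.139 for Sf3b1 K700E and 0.306, 0.274 and 0.308 for double libraries. The double libraries lay above all 9 others. The ratio of Pf4 to Itga2b was 1.98 ± 0.13 (SD, n = 3) in control and 3.82 ± 0.88 in the double group, whose range of 2.82 to 4.45 lay above control and overlapped the inv(3) range of 1.34 to 3.20. Each of these separations reaches only p = 0.1 in the exact permutation test, which is 0.25 adjusted.

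**Figure D1:**
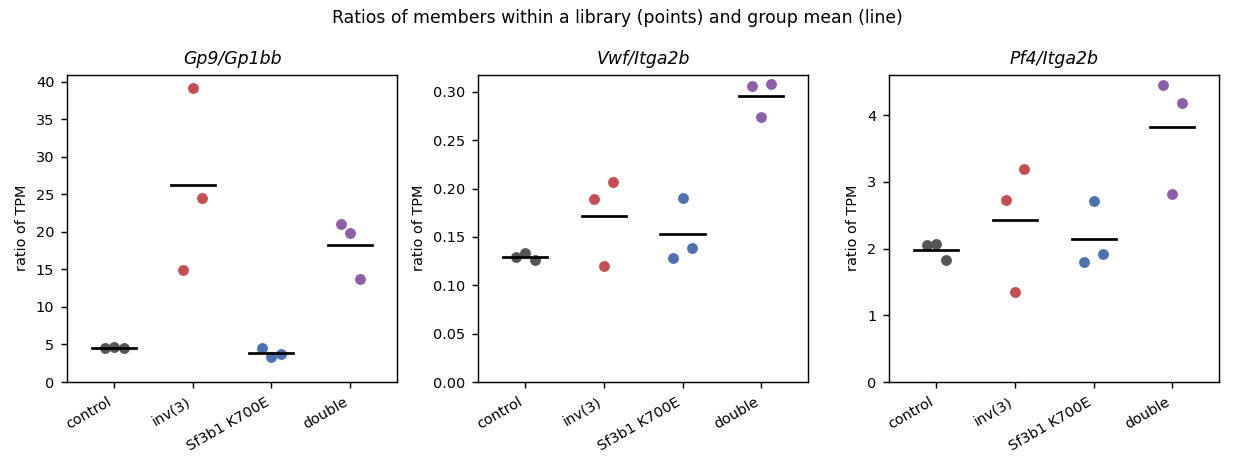
Ratios of TPM between members within each library, on linear axes that start at 0, with 1 point per library and a line at the mean of each group of 3. Gp9 to Gp1bb lies between 13.7 and 39.2 in the 6 libraries with the inv(3) allele and between 3.33 and 4.66 in the 6 without it, and Vwf to Itga2b lies between 0.274 and 0.308 in the double group alone.

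Plek encodes pleckstrin, the main substrate of protein kinase C in platelets, which is also present in myeloid cells. It measured 90.4, 91.7 and 97.1 CPM in control, 25.2, 18.4 and 24.6 CPM in inv(3), 114.4, 135.4 and 114.6 CPM in Sf3b1 K700E and 23.4, 15.4 and 17.5 CPM in the double group. The Sf3b1 K700E libraries lay above the control libraries, and the libraries with inv(3) lay far below both. Plek fell by 2.03 ± 0.15 in inv(3) against control (edgeR adjusted p = 3.4e-06), by 2.31 ± 0.15 in the double group against control (edgeR adjusted p = 9.8e-07) and by 2.69 ± 0.16 in the double group against Sf3b1 K700E (edgeR adjusted p = 3.7e-07). The 8 macrophage marker genes summed to 332.5 to 426.3 CPM in control, 81.4 to 121.8 CPM in inv(3), 423.1 to 567.7 CPM in Sf3b1 K700E and 64.9 to 84.3 CPM in the double group. Vcam1 made up most of the sum, with a mean of 312.6 CPM in control and 63.8 CPM in inv(3). In inv(3) against control 5 of the 8 were lower and 1, Adgre1, was higher, at 0.57, beside 20.3% and 18.4% of all tested genes. In Sf3b1 K700E against control 6 were higher, beside 3.94% of all tested genes, while Vcam1, at -0.14, was not called. None was at 0, and their part in the Plek values was not tested.

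**Figure D2:**
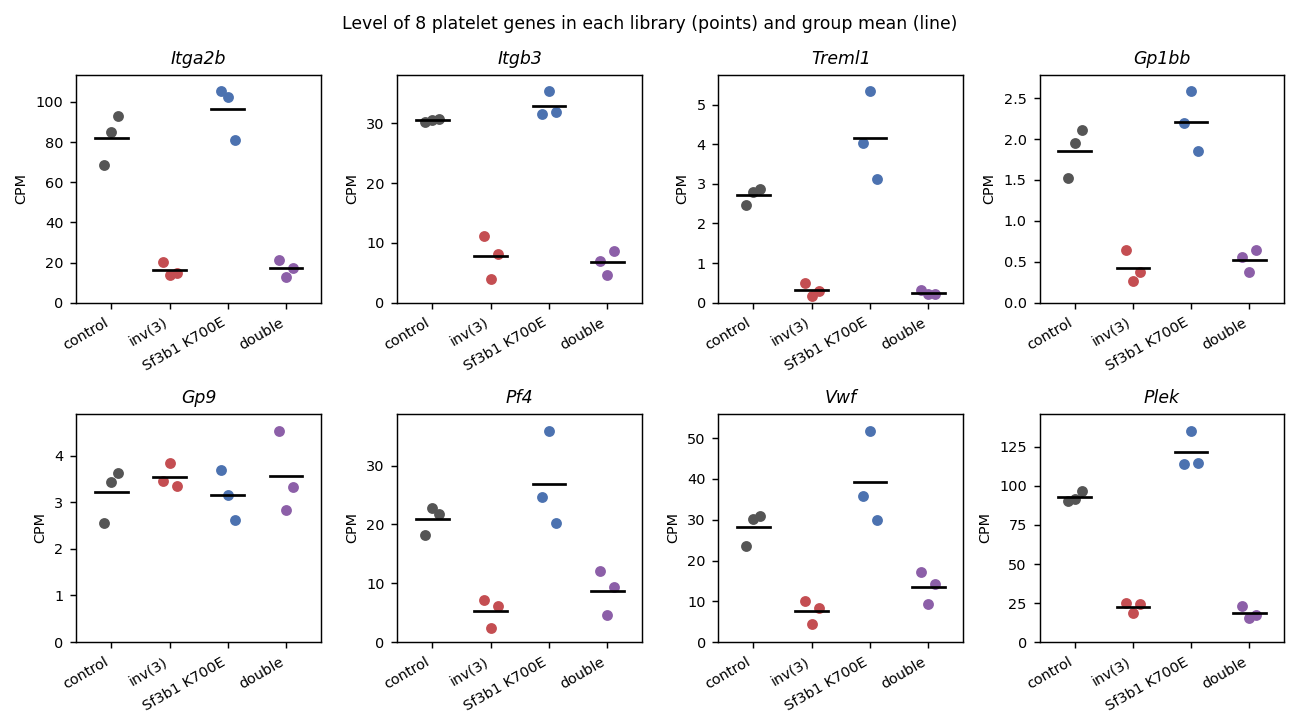
CPM of the 8 tested genes in the 12 libraries, 1 panel per gene on a linear axis from 0, with 1 point per library and a line at the mean of each group of 3. In 7 panels the inv(3) and double libraries lie below all control and Sf3b1 K700E libraries, and in the Gp9 panel all groups overlap.

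By gene, then, 7 of the 8 tested members were lower in inv(3) than in control, against 20.3% of all tested genes called lower, and the same 7 had library ranges that did not overlap, against 26.9% of all tested genes. In the double group 7 of 8 were lower than in control (20.4% of all genes, with 27.5% not overlapping) and 7 of 8 lower than in Sf3b1 K700E (23.5%, with 28% not overlapping). The median log2 fold changes of the 8 were -2.02, -1.99 and -2.17 in these comparisons, where the median of all tested genes was 0.00, 0.00 and 0.03. Double against control and inv(3) against control share the control libraries, and double against control and double against Sf3b1 K700E share the double libraries, whereas inv(3) against control and double against Sf3b1 K700E share none. All 7 were called lower in the last pair.

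**Figure D3:**
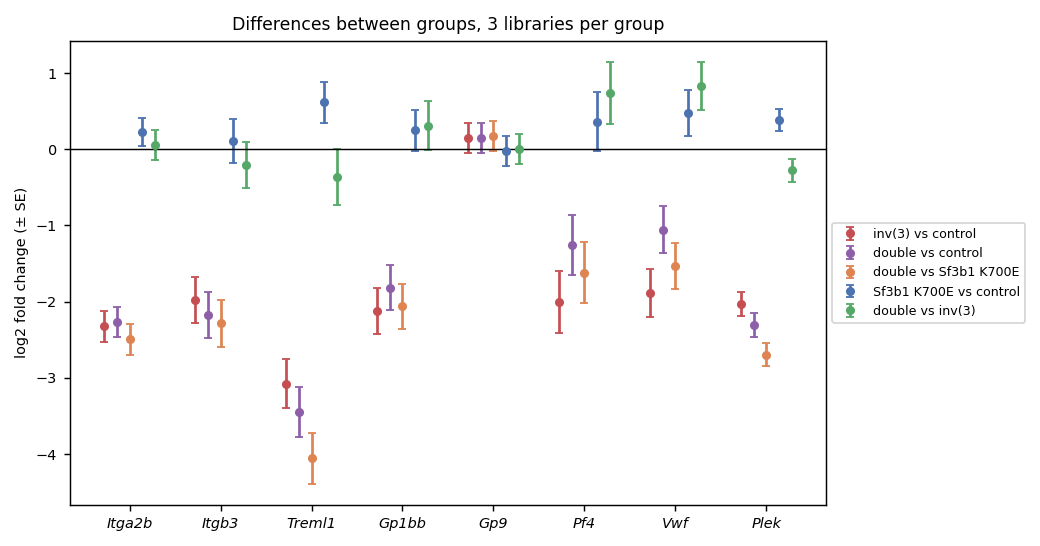
Log2 fold change of the 8 tested genes in each comparison (points) with the standard error (bars), from edgeR, with a line at 0. The 7 genes other than Gp9 lie between -1.05 and -4.06 in the comparisons that add the inv(3) allele and between -0.37 and 0.83 in double against inv(3), where none was called.

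The Sf3b1 K700E mutation alone gave no call among the members. In Sf3b1 K700E against control 0 of 8 passed edgeR's test, where 8.84% of all tested genes did, and DESeq2 and limma-voom also called 0. An unadjusted p under 0.05 by edgeR was found for 2 of the 8 and for 3551 of all 13755 tested genes. Plek had a log2 fold change of 0.38 ± 0.14 (edgeR adjusted p = 0.12) and Treml1 of 0.61 ± 0.27 (edgeR adjusted p = 0.18). Plek passed when only the compared groups were fitted (edgeR adjusted p = 0.022), and Treml1 passed in limma on log2(TPM + 1), with 0.58 on that scale (adjusted p = 0.049). The ranges of 3 members, Itgb3, Treml1 and Plek, lay above control without overlap, which 17.7% of all tested genes did. The median of the 8 was 0.30, against -0.01 for all tested genes.

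Adding Sf3b1 K700E to inv(3) also gave no call. In the double group against inv(3) 0 of 8 members passed edgeR's test (22.6% of all tested genes did), and DESeq2 and limma-voom also called 0. An unadjusted p under 0.05 by edgeR was found for 1 of the 8 and for 4940 of all 13755 tested genes. Vwf had the largest log2 fold change, 0.83 ± 0.31 (edgeR adjusted p = 0.081), followed by Pf4 with 0.74 ± 0.41 (edgeR adjusted p = 0.22). Vwf passed without inv(3) library 1 (1.09, edgeR adjusted p = 0.039) or double library 2 (1.04, edgeR adjusted p = 0.036), and Plek, at -0.28 ± 0.15, passed without double library 1 (-0.47, edgeR adjusted p = 0.043). Library ranges overlapped for all 8 genes, while over all tested genes 17.6% lay apart lower and 21.9% higher. The members' median was 0.03.

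The interaction asks whether the effect of inv(3) differs by Sf3b1 genotype. It includes the inv(3) libraries, which held almost no Y-linked RNA, so sex and the interaction cannot be told apart. By edgeR 0 of 8 members passed (0.836% of all tested genes did). An unadjusted p under 0.05 was found for 2252 of all 13755 tested genes and for 1 member, Plek. Its interaction was -0.66 ± 0.21 on the log2 scale (edgeR adjusted p = 0.15). DESeq2 called it, at -0.68 (adjusted p = 0.032), and limma-voom called 0 members. Treml1 had -0.98 ± 0.46 (edgeR adjusted p = 0.31). These standard errors leave room for interactions of the size seen, so equal effects in both backgrounds are not shown.

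Per length, Pf4 was the most abundant member in every group, at 85.9 ± 9.7 TPM (SD, n = 3) in control and 20.0 ± 9.8 TPM in inv(3). In control it was followed by Itga2b at 43.5 TPM and Plek at 40.8 TPM, whose library ranges overlap, then Itgb3 at 9.41, Gp9 at 8.62, Vwf at 5.62, Treml1 at 4.51, Gp1bb at 1.89 and Gp6 at 0.02 TPM. With the inv(3) allele the means of Gp9, Itga2b and Plek lay close together, at 8.84, 8.06 and 9.23 TPM in inv(3) and 9.39, 8.88 and 8.06 TPM in the double group, and their library ranges overlapped in both groups. Treml1, at 0.44 TPM, and Gp1bb, at 0.53 TPM, also overlapped in the double group. The mean of Gp9 was 8.85 TPM in Sf3b1 K700E. Among the groups, Sf3b1 K700E had the highest mean CPM for 7 of the 8 tested members, all but Gp9. Its range overlapped that of control for Itga2b, Gp1bb, Pf4 and Vwf, and none of the 7 was called against control. The share of all tested genes with this order was not computed.

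Within groups the members tended to be high or low in the same libraries. Control library 1 was the lowest of its group for 8 of 8 tested members, and double library 2 was the lowest of its group for 8 of 8. In inv(3), library 2 was lowest for 7 and library 1 highest for 7, and in Sf3b1 K700E library 2 was highest for 6. The same shares over all tested genes were not computed. A shift of the members therefore cannot be told apart from one of the whole library. Across the 12 libraries the log2 CPM of the 7 members other than Gp9 had pairwise Pearson correlations from 0.89 to 0.99 (21 pairs, median 0.96), a description that rests largely on the split by the inv(3) allele. After removal of the group means these were 0.65 to 0.98 (median 0.85). Gp9 correlated with the other 7 at -0.32 to -0.16 across all libraries and at 0.05 to 0.76 within groups. These libraries share their depth range and scaling factors, so the values are descriptive.

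A list of 57 other megakaryocyte and platelet genes was less uniform. Some of them were more abundant than any member. Fermt3, F13a1 and Tln1 averaged 235.6, 217.3 and 214.6 TPM in control, beside 85.9 TPM for Pf4, the highest member. Which cells their RNA came from was not tested. Of its 50 tested genes, 12 were higher and 23 lower in inv(3) against control, with a median of -0.21. Of all tested genes 18.4% were higher and 20.3% lower there. In the double group against Sf3b1 K700E 15 were higher and 28 lower, with a median of -0.46. There 25.7% of all tested genes were higher and 23.5% lower. Double against control had 11 higher and 24 lower (20.8% and 20.4% of all). Double against inv(3) had 9 higher and 9 lower (13.4% and 9.13% of all). The genes with the smallest p included F2rl2, the thrombin receptor PAR3, and Gng11, a G-protein γ subunit. F2rl2 fell by 2.94 ± 0.22 in inv(3) against control (edgeR adjusted p = 2.7e-06) and by 3.30 ± 0.22 in the double group against Sf3b1 K700E (edgeR adjusted p = 6.5e-07). Gng11 fell by 4.62 ± 0.36 (edgeR adjusted p = 3.4e-06) and 4.63 ± 0.36 (edgeR adjusted p = 1.9e-06). Itga2, the α2 chain of a collagen-binding integrin, fell by 2.97 ± 0.28 in inv(3) against control (edgeR adjusted p = 1.4e-05).

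Other genes of that list rose. Thbs1, the adhesive granule protein thrombospondin 1, rose by 2.86 ± 0.21 in the double group against Sf3b1 K700E (edgeR adjusted p = 1.9e-06). Selp, the granule membrane receptor P-selectin, rose by 1.39 ± 0.17 in the double group against inv(3) (edgeR adjusted p = 0.00078). In that comparison Tuba8, a tubulin, fell by 0.79 ± 0.11 (edgeR adjusted p = 0.00099) and P2rx1, an ATP-gated channel, fell by 0.43 ± 0.07 (edgeR adjusted p = 0.0016).

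In Sf3b1 K700E against control 2 of the 50 were higher and 6 lower, beside 3.94% and 4.9% of all tested genes. Thbs1 fell by 0.91 ± 0.21 (edgeR adjusted p = 0.024), Ptgs1, the cyclooxygenase of platelets, by 0.37 ± 0.09 (edgeR adjusted p = 0.027) and Rasgrp2, an activator of integrin signalling, by 0.32 ± 0.08 (edgeR adjusted p = 0.026). Each of these calls was lost in several fits that left out 1 library, for Thbs1 without any of the 3 control libraries or without Sf3b1 K700E libraries 1 or 3. Over all 50 genes the count fell from 8 to 0 without control library 2 and rose to 13 without inv(3) library 2. The interaction was called for 0 of the 50 by edgeR and limma-voom and for 5 by DESeq2. By edgeR 12 of the 50 had an unadjusted p under 0.05, beside 2252 of all 13755 tested genes. Itga2 had the smallest interaction p, at 1.76 ± 0.38 (edgeR adjusted p = 0.056), a value that passed with DESeq2 (adjusted p = 0.004) and, by edgeR, without inv(3) library 3 (0.048) or double library 2 (0.036). P2rx1, at -0.42 ± 0.09 (edgeR adjusted p = 0.06), passed with DESeq2 (0.002), in limma on log2(TPM + 1) (0.049), and by edgeR with a minimum mean of 5 CPM (0.044) or without inv(3) library 1 (0.033).

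**Figure D4:**
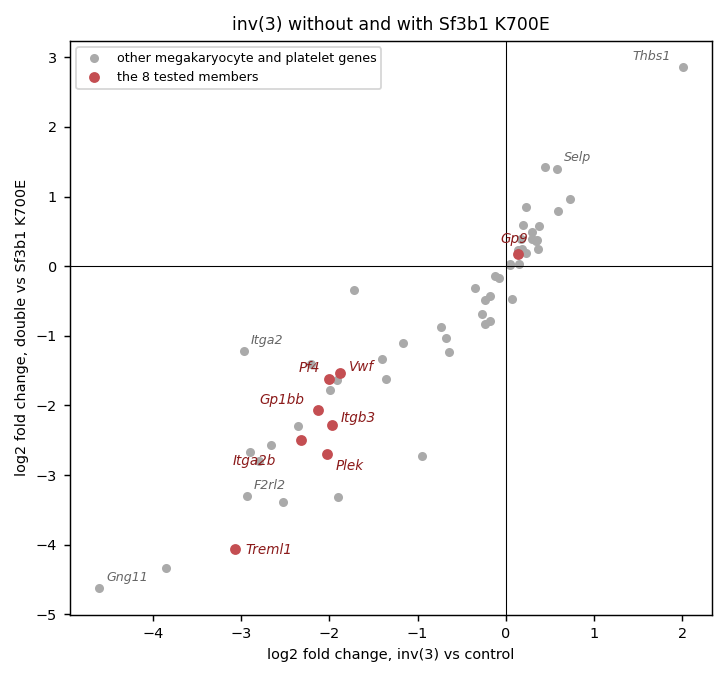
Log2 fold change of inv(3) against control (x axis) and of double against Sf3b1 K700E (y axis), which share no library, for the 8 tested members and the 50 other tested megakaryocyte and platelet genes, 1 point per gene. The 7 members other than Gp9 lie in the lower left, and Thbs1 lies in the upper right at 2.01 and 2.86.

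Of 14 transcription factors and cofactors of the lineage, 6 were higher and 7 lower in inv(3) against control, with a median of -0.30, beside 18.4% higher and 20.3% lower among all tested genes. Gata1, the master factor of the erythroid and megakaryocyte lines, fell by 1.83 ± 0.24 (edgeR adjusted p = 0.00017), Gfi1b, a repressor needed for platelet production, by 1.72 ± 0.27 (edgeR adjusted p = 0.00054) and Tal1 by 1.48 ± 0.12 (edgeR adjusted p = 6.5e-06). Fli1, the ETS factor, rose by 0.22 ± 0.06 (edgeR adjusted p = 0.011) and Nfe2, a late platelet factor, by 0.37 ± 0.05 (edgeR adjusted p = 0.00016). Against control the double group had 2 higher and 3 lower, near the 20.8% and 20.4% of all tested genes, and its Gata1 fell by 1.32 ± 0.24 (edgeR adjusted p = 0.0011). Fitting the compared groups alone gave 3 higher and 5 lower there.

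Markers of other cells also differed between the groups, in both directions. The 9 erythroid marker genes summed to 532.2 to 567.7 CPM in control and 55.7 to 164.2 CPM in inv(3). Their sums were 666.6 to 790.6 CPM in Sf3b1 K700E and 98.0 to 166.8 CPM in the double group. Car1 and Car2 made up most of the control sum, with means of 192.3 and 234.6 CPM. In inv(3) against control 7 of the 9 were called lower, beside 20.3% of all tested genes, and Hba-a1 and Alas2 were not called. In Sf3b1 K700E against control only 2 were called higher, Hba-a1 at 2.69 and Alas2 at 3.24, beside 3.94% of all tested genes. The 7 neutrophil marker genes summed to 1375 to 2063 CPM in control and 4419 to 5426 CPM in inv(3). Their sums were 1152 to 2185 CPM in Sf3b1 K700E and 2475 to 3674 CPM in the double group. S100a8 and S100a9 made up most of the inv(3) sum, with means of 2323 and 2058 CPM. In inv(3) against control 5 of the 7 were called higher, beside 18.4% of all tested genes. Mmp8 was called lower there, at -4.93 (edgeR adjusted p = 0.017), and Ltf was not called. Genes that mark mature platelets (Gp1ba, Gp5, Tubb1 and Ppbp) summed to only 10.6 to 14.4 CPM in control, 4.22 to 5.52 CPM in inv(3), 16.2 to 21.3 CPM in Sf3b1 K700E and 4.52 to 11.1 CPM in the double group. The fall of that sum lay in Gp1ba and Gp5, since Tubb1, at 0.05, and Ppbp, at 0.18, were not called in inv(3) against control, nor in the double group against control, at 0.67 and 0.87. The 7 mast cell and basophil genes were all called lower in inv(3) against control, with a median of -2.15. In the double group 6 of them were lower against control and against Sf3b1 K700E, with medians of -2.52 and -2.72. The shares of all tested genes called lower were 20.3%, 20.4% and 23.5% in these comparisons. Of 8 stem cell genes 4 were lower and 1 higher in inv(3) against control, beside 20.3% and 18.4% of all tested genes. In the double group against inv(3) 6 were higher, beside 13.4% of all tested genes. Of 5 tested B-lymphoid genes 3 were higher in Sf3b1 K700E against control, beside 3.94% of all tested genes. No gene of these 6 lists was at 0 in any group. The part of these shifts in cell markers in the members' values was not tested.

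The genes whose log2 CPM over the 12 libraries was most like the mean of the 8 tested members, by Pearson correlation, were Ache (0.988), Kcng1 (0.984), Smad1 (0.983), Tmcc2 (0.979), Rab27b (0.979) and Psap (0.978). By Spearman correlation 1 of the 6 was shared, and on log2(TPM + 1) 3 were. They fell by unlike amounts in inv(3) against control, Kcng1, a potassium channel subunit, by 2.65 ± 0.40 (edgeR adjusted p = 3e-04) and Smad1, a BMP signal transducer, by 0.40 ± 0.07 (edgeR adjusted p = 0.00098). Rab27b, a GTPase of platelet granule secretion, fell by 2.36 ± 0.28 (edgeR adjusted p = 8e-05). The correlations here and below span libraries with and without the inv(3) allele and were not computed within groups. In inv(3) against control 20.3% of all tested genes were called lower. For genes that differ by the inv(3) allele, likeness and that shared split cannot be told apart. Singly, the nearest gene to Treml1 was Sdpr (0.997), to Plek was Pde10a (0.996), to Itga2b was F2rl2 (0.993), to Itgb3 was Kcnj5 (0.992), to Gp1bb was Itsn1 (0.989), to Pf4 was Prkch (0.981) and to Gp9 was Disp1 (0.967).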

How the data were processed

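Libraries were unstranded TruSeq from poly(A)-selected RNA, per the labels. The deposited tables carry RSEM's columns per the file headers: expected counts, TPM and effective length in bases for each gene, as estimated by the authors. The submitters' processing notes name bcl2fastq and mm10. The aligner and its settings are not stated in them. Unstranded reads of overlapping genes cannot be told apart.

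Expected counts were rounded, filtered with filterByExpr by group (13755 of 24411 genes kept), scaled with TMM factors and modelled in edgeR 4.0.16 under R 4.3.3, as 1 robust quasi-likelihood fit over the 4 groups with 6 contrasts. Two-sided p-values received Benjamini-Hochberg adjustment over all tested genes (limit 0.05), and standard errors come from the F statistic. Deposited TPM values served for ratios and levels between genes. Likeness used log2 CPM with a prior count of 2, among genes with a mean of at least 1 CPM.

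The members and gene lists were chosen with earlier results of these data known. Named genes were the members, their complex partners, and the 3 other platelet genes with the smallest p in each comparison. Sept5, Gata2 and the transcription factors were named after their values were seen. Other tools tried were DESeq2 1.42.0 and limma 3.58.1, as voom and on log2(TPM + 1). Other settings were RLE factors, no filter, a minimum mean of 5 CPM, offsets for effective length, a block for replicate number, factors computed without the 50 most abundant genes, fits of the compared groups alone or without the inv(3) group, and fits without each library. The code was tested on simulated data. The result for 1 gene is not reported here. Mpig6b, Gucy1a1 and Gucy1b1, of the list of 57, are not analysed here.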

Additional observations from a re-analysis of the deposited data

How the results depend on the processing

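The 21 called changes of members kept their direction in 470 alternative values, and 464 of these also passed the threshold. The 6 exceptions are Pf4 and Vwf in the double group against control, where the number of members called ran from 5 to 7 over fits without 1 library. Members called in Sf3b1 K700E against control rose from 0 to 1 in limma on log2(TPM + 1) and with the compared groups alone. In double against inv(3) they ran from 0 to 1 over fits without 1 library, and in the interaction DESeq2 called 1. On log2(TPM + 1), which understates changes of low genes, Gp1bb fell by 1.06 and Treml1 by 1.89 in inv(3) against control.

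Genes called in Sf3b1 K700E against control, 1216 with edgeR, were 1881 with DESeq2 and 168 to 1649 over fits without 1 library. In double against inv(3) the 3103 calls became 1954 with the compared groups alone and 1566 to 3342 without 1 library. The 115 interaction calls became 622 with DESeq2, 245 with limma on log2(TPM + 1) and 32 to 323 without 1 library. The cause was not tested. With the replicate number as a block 654 genes were called in Sf3b1 K700E against control and 60 in the interaction, and the numbers of members called did not change. Same-numbered libraries of different groups correlated at -0.38 to 0.27, with 3 of 18 pairs over 0.1, so the numbers were not taken to pair the samples.

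Values that changed sign were all of results that had not passed. For Gp9 they were 0.0359 in Sf3b1 K700E against control with limma on log2(TPM + 1), and, in double against inv(3), -0.000307 with RLE scaling, -0.000103 with DESeq2, -0.0085 with limma-voom, -0.0050 with the compared groups alone, -0.0020 with the replicate block, -0.0038 with the effective-length offset and -0.0054 with the 50 most abundant genes left out. Gp1bb gave -0.0578 in the interaction with limma on log2(TPM + 1). Over fits without 1 library Gp9 ran from -0.16 to 0.12 in Sf3b1 K700E against control, from -0.0653 to 0.29 in double against control, from -0.0405 to 0.31 in double against Sf3b1 K700E, from -0.21 to 0.15 in double against inv(3) and from -0.18 to 0.17 in the interaction. In double against inv(3) Itga2b ran from -0.12 to 0.23, Itgb3 from -0.51 to 0.15 and Treml1 from -0.67 to 0.0531, and in the interaction Itga2b ran from -0.35 to 0.00612, Itgb3 from -0.62 to 0.0465 and Gp1bb from -0.18 to 0.48. The ratios of Gp9 to Gp1bb in inv(3) against control and double against Sf3b1 K700E, of Vwf to Itga2b in double against control and against inv(3), and of Pf4 to Itga2b in double against control kept their direction without any 1 library and from CPM, an alternative chosen after seeing the data. The other ratio comparisons were not repeated.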
